A study of Mus musculus with 8 samples.

Results

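The subject is regenerating muscle of old mice that carried the treatment label PBS, described on its own and without any contrast to the cytokine-treated mice of the same study. The members were the 4 arrays whose titles name PBS, out of 8 arrays in all, and the other 4 were from mice given recombinant interleukin 33 (rIL-33). All mice were male, of the C57BL/6 strain, and 99 weeks old by their age label, while the study's design text gives 22 months. The tibialis anterior, a fast muscle of the shin, had been frozen locally by holding a metal probe chilled in liquid nitrogen to it for 8 s. Whole muscles were dissected 8 days later and homogenised in TriZol, and the total RNA was hybridised to the Mouse Gene 1.0 ST array of Affymetrix. For genetic background, C57BL/6 is entered for PBS replicates 1 and 2, whereas WT is entered for replicates 3 and 4. The sources used here do not say what distinguishes those labels, how or when PBS was injected, or whether the arrays were from separate mice, so every error given measures the spread between these 4 arrays. No uninjured muscle, no young muscle and no other day is among the samples, so none of the values below is a change caused by injury or by age.

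Freezing kills fibres, and the dead tissue is cleared by neutrophils and then by macrophages. Satellite cells, the stem cells of muscle, then divide, become myoblasts and fuse into new fibres, which at first make embryonic and neonatal forms of the contractile proteins. Fibroblasts and fibro-adipogenic progenitors lay down a provisional matrix around them, which is remodelled as the fibres mature. The genes of these processes were read in 5 classes of lists, namely fibre, immature fibre, matrix, leukocyte and proliferation. Since whole muscle was used, fewer cells of a type and less RNA per cell cannot be told apart.

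Each of the 19752 genes with a value was given a level, its mean log2 intensity over the 4 arrays, and a percentile, the share of all genes with a signal at or below its own. Probe sets differ in how brightly they report a transcript, so these are ranks of signal and not of transcript number. A gene was counted as above background when its mean exceeded a log2 intensity of 6.89 (intensity 119.0), the 95th percentile of 1194 olfactory and vomeronasal receptor genes, which serve the sense of smell. That left 13936 genes (70.6%) above background. Their median SD over the 4 arrays was 0.14 on the log2 scale, and the most variable 10% had an SD above 0.27. For 81.1% of them the highest and lowest arrays lay within 0.5 of each other, and 136 genes (0.976%) spanned more than 1, which is more than 2-fold.

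The 4 arrays were not equally alike. Differences between replicates 1 and 2 had an SD of 0.19 over the genes above background, and those between replicates 3 and 4 an SD of 0.21. Pairs that crossed the labels gave 0.26 to 0.32. Median intensities were close, 228.1 to 232.2, but the upper quartile was 590.4 and 570.0 on replicates 1 and 2 and 511.6 and 552.7 on replicates 3 and 4. The lower quartile ran the other way, at 88.3 and 93.8 against 107.3 and 100.2. Bright genes were thus dimmer, and dim genes brighter, on the WT-labelled arrays, most of all on replicate 3, which held the lowest value of 41.7% of the genes above background. Single lists departed from this, the bright matrix class for one, and its part in the differences between arrays was not tested.

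The brightest genes were those of the adult fast fibre. Of the 30 genes of highest level, 12 were in the list of adult fast fibre genes, 3 were other fibre genes (the giant scaffold proteins Ttn and Neb, and Atp5b of the mitochondrial ATP synthase) and 1, Myl4, belonged to the immature fibre. None was from the matrix, leukocyte or proliferation lists. At the head stood the probe set annotated to Baiap2l1, a gene of actin-rich membrane protrusions, with 14.23, 14.17, 14.23 and 14.18 on replicates 1 to 4. Whether that probe set reports this gene was not tested. The small noncoding RNAs Rn7sk and Rny3 followed. Acta1, the skeletal alpha-actin of the thin filament, ranked 4 with 14.00, 13.98, 13.85 and 13.82, and Atp2a1, the calcium pump of the fast sarcoplasmic reticulum, ranked 5 with 13.91, 13.92, 13.83 and 13.85. The defining markers of the labelled tissue were thus present on every array.

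**Figure D1:**
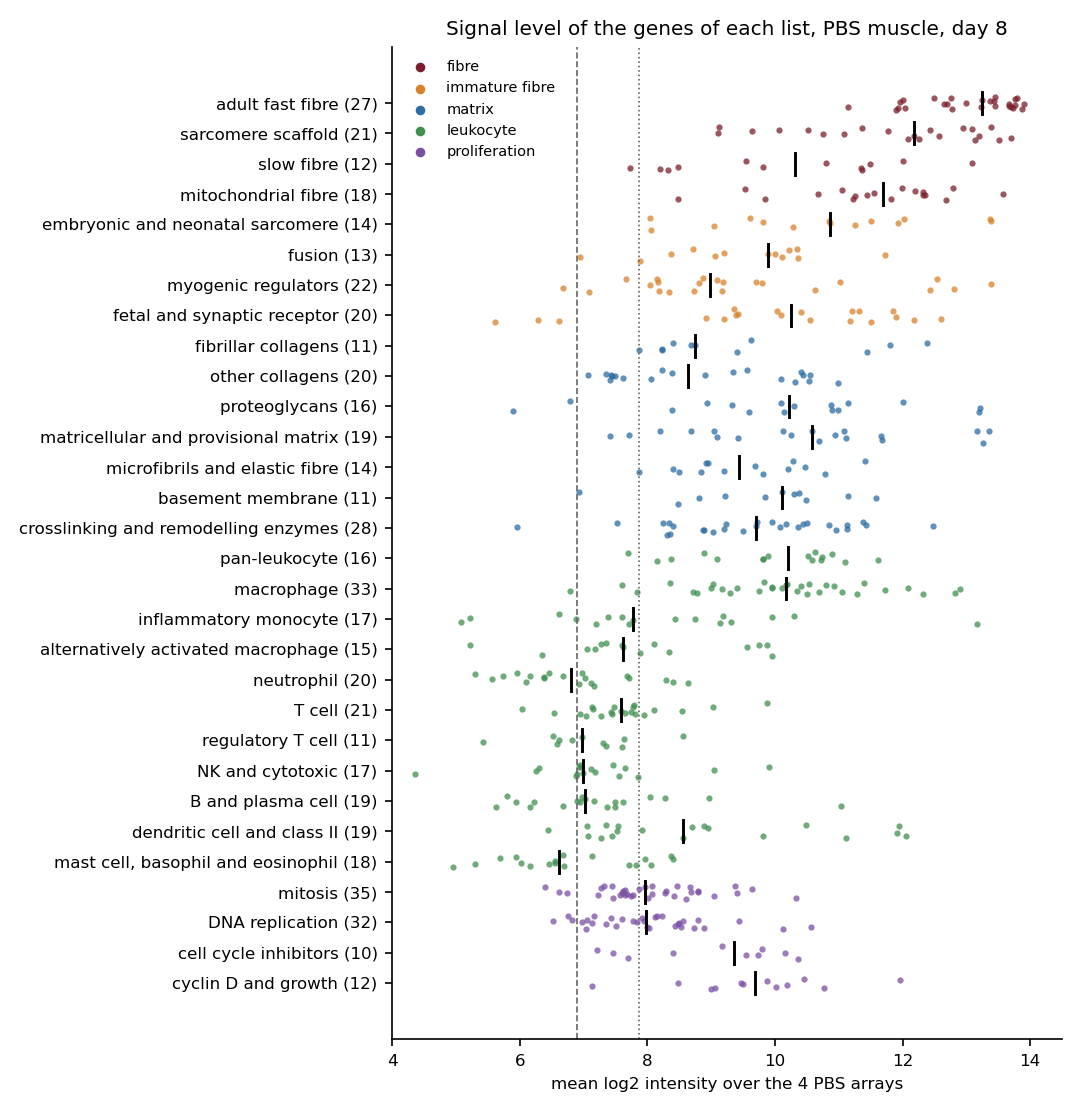
Mean log2 intensity over the 4 PBS arrays (x axis) of each gene found in the lists of the 5 classes (1 dot per gene, number found in brackets); the black bar is the list's median, the dashed line the background cut-off of 6.89 and the dotted line the median of all 19752 genes, 7.87. The medians run from 13.25 for adult fast fibre genes to 6.61 for those of mast cells, basophils and eosinophils.

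All 78 fibre genes found were above background. Their median gene sat at percentile 99.0 ± 0.16 (mean ± SD over arrays, n = 4). In the adult fast fibre list, 27 genes of fast contraction and of the glycolysis that feeds it, the median was 99.8 ± 0.041. The 3 adult fast myosin heavy chains were all bright. Myh4, the heavy chain of the fastest type 2B fibres, gave 13.53, 13.57, 13.38 and 13.35. Myh1, that of type 2X fibres, gave 13.35, 13.24, 13.25 and 13.15. Myh2, that of type 2A fibres, gave 11.71, 11.79, 12.04 and 12.04. Myh4 was thus a little higher on the C57BL/6-labelled arrays and Myh2 a little higher on the WT-labelled ones, without overlap in either; over all genes above background such a gap was seen in 36.2% and 22.3%. Ckm, the muscle creatine kinase, Pvalb, the calcium buffer parvalbumin, and Aldoa, the glycolytic aldolase, lay between 13.63 and 13.88 on every array.

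Slow fibre genes were more mixed, with a median at percentile 90.8 ± 1.4 over 12 genes. Myh7, the slow and cardiac myosin heavy chain, had 8.15, 8.71, 8.67 and 8.38. Its partner light chain Myl2 had 7.71, 8.37, 8.47 and 8.21, and Myl3 had 7.89, 8.76, 8.10 and 8.56. All 3 were lowest on replicate 1, and Myl2 and Myl3 were in the most variable 10%. The slow troponins did not follow them: Tnni1, which young and regenerating fast fibres also make, had 11.47, 11.22, 11.44 and 11.25, and Tnnc1, the slow and cardiac calcium-binding subunit, had 10.12, 9.58, 9.81 and 9.78. Both were highest on replicate 1.

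Among fibre genes the mitochondrial list moved most between arrays. Its median was at percentile 98.2 ± 0.39, and 7 of its 18 genes were in the most variable 10% (3 without replicate 2). The mean deviation of its genes from their own 4-array mean was 0.10, 0.26, -0.20 and -0.16 on replicates 1 to 4. After quantile normalization these values were 0.02, 0.24, -0.13 and -0.14. In 15 of the 18 genes both WT-labelled arrays lay below both C57BL/6-labelled ones, as they did for 36.2% of all genes above background. Ucp3, a mitochondrial carrier tied to fat burning, gave 9.69, 10.24, 8.89 and 9.30. Cox8b, the muscle form of a small subunit of cytochrome c oxidase, gave 12.74, 12.82, 11.89 and 11.82. Pdk4, the kinase that turns off pyruvate dehydrogenase in fasting, gave 11.50, 12.03, 11.08 and 11.61. Replicate 2 was the highest array in 16 of the 18 genes, beside 21.7% of all genes above background. The scaffold genes were steadier, with Ttn between 13.48 and 13.55 and Neb between 13.68 and 13.73. Exceptions in that list were the atrophy ubiquitin ligases Trim63 (9.34, 9.67, 8.83 and 8.63) and Fbxo32 (10.30, 10.49, 9.77 and 9.70), again highest on replicate 2 and lower on both WT-labelled arrays. Over the fibre class 13 of 78 genes were in the most variable 10%, and without replicate 2 there were 8.

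The promoter of Acta1 is shown because its letters hold motifs of muscle transcription. The window searched was 250 bases before to 50 after the RefSeq gene start in GRCm38.p6, both strands being read, and 250 before to 20 after are printed. It lies at chr8:123894756-123895025 on the minus strand and is written 5′ to 3′ along the gene. Capitals mark, from the left, an E-box (CAGCTG, the core bound by MyoD and myogenin) 221 bases before the start, a CArG box (bound by serum response factor) 73 bases before it and a TATA box (TATAAA) 7 bases before it.
Acta1: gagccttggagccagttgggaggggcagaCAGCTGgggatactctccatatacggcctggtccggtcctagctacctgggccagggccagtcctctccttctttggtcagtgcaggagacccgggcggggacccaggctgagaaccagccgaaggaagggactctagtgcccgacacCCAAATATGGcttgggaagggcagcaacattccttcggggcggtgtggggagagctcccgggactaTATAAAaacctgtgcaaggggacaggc
Of the 21 adult fast fibre genes with a promoter in the RefSeq table, 12 (57.1%) held CAGCTG, against 16.0% of the 11039 genes above background that had one and 16.1% of all 27025 promoters. TATAAA was in 5 (23.8%), against 7.91% and 14.2%, the CArG box in 2 (9.52%), against 1.38% and 1.57%, and the MEF2 site in 4 of the 21, against 1.81% and 3.26%. These are letter matches in 1 window and show no binding.

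Genes of the immature fibre were also bright at day 8. Of 69 found, 65 were above background, and the class median was at percentile 87.1 ± 1.1. The embryonic and neonatal sarcomere list stood highest, at 94.9 ± 1.7 over 14 genes. Myl4, the embryonic and atrial light chain, gave 13.44, 13.35, 13.42 and 13.36. Actc1, the cardiac alpha-actin that developing skeletal muscle also uses, gave 13.49, 13.39, 13.33 and 13.24. Myh3, the embryonic myosin heavy chain, gave 11.16, 10.60, 10.84 and 10.78, and Myh8, the neonatal one, gave 11.61, 11.52, 11.56 and 11.33. Tnnt2, the cardiac troponin T of immature fibres, gave 12.24, 11.98, 11.74 and 11.75. Of the 14 genes, 12 were highest on replicate 1, as were 35.4% of all genes above background.

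Fusion and receptor genes were above background with few exceptions. Mymk, the membrane protein myomaker that lets myoblasts fuse, had 11.70, 11.55, 11.93 and 11.75, and Mymx, its partner myomixer, had 8.34, 8.49, 8.46 and 8.16. Chrna1, the alpha subunit of the acetylcholine receptor, had 11.96, 11.82, 11.82 and 11.79. Its fetal gamma subunit Chrng had 9.67, 9.30, 9.32 and 9.40, and the adult epsilon subunit Chrne had 9.55, 9.53, 9.08 and 9.27. Ncam1, an adhesion molecule that immature and denervated fibres carry over their surface, had 11.70, 11.35, 11.55 and 11.44. The imprinted growth gene Igf2 had 12.61, 12.62, 12.63 and 12.57 and was one of the steadiest members (SD 0.028). The oncofetal members Igf2bp1, Igf2bp3 and Lin28b were below background.

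Regulators of the myogenic lineage were spread over a wide range of signal, with a median at percentile 72.9 ± 2.6 for 22 genes. Pax7, the marker of satellite cells, had 8.92, 8.89, 8.74 and 8.66. Myf5, made by activated satellite cells, had 8.44, 8.37, 7.99 and 7.82. Myod1, the factor that commits myoblasts, had 10.15, 9.84, 9.52 and 9.71, and Myog, which drives their differentiation, had 9.28, 8.98, 8.57 and 8.65. In all 4 genes both WT-labelled arrays were below both C57BL/6-labelled ones, as they were for 36.2% of all genes above background. Myf6, the regulator that mature fibres keep, went the other way on 1 array, with 12.49 on replicate 1 and 12.89 to 12.93 on the rest. Calcr, a receptor of quiescent satellite cells, was below background (6.59, 6.82, 6.60 and 6.69).

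Replicate 1 led the immature fibre class. Its mean deviation was 0.15, against -0.03, -0.06 and -0.07 on replicates 2 to 4 (0.088 on replicate 1 after quantile and 0.092 after cyclic loess normalization), and it held the highest value of 45 of the 65 genes above background, beside 35.4% of all genes above background. Of the 65, 12 were in the most variable 10%, and 6 without replicate 1. The widest spread was that of Ankrd1, a titin-bound protein induced by fibre strain and injury, with 11.43, 10.18, 11.70 and 11.69. Csrp3, the muscle LIM protein of the Z-disc, gave 9.92, 8.97, 9.79 and 9.75. In both genes replicate 2 stood well below the other 3.

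**Figure D2:**
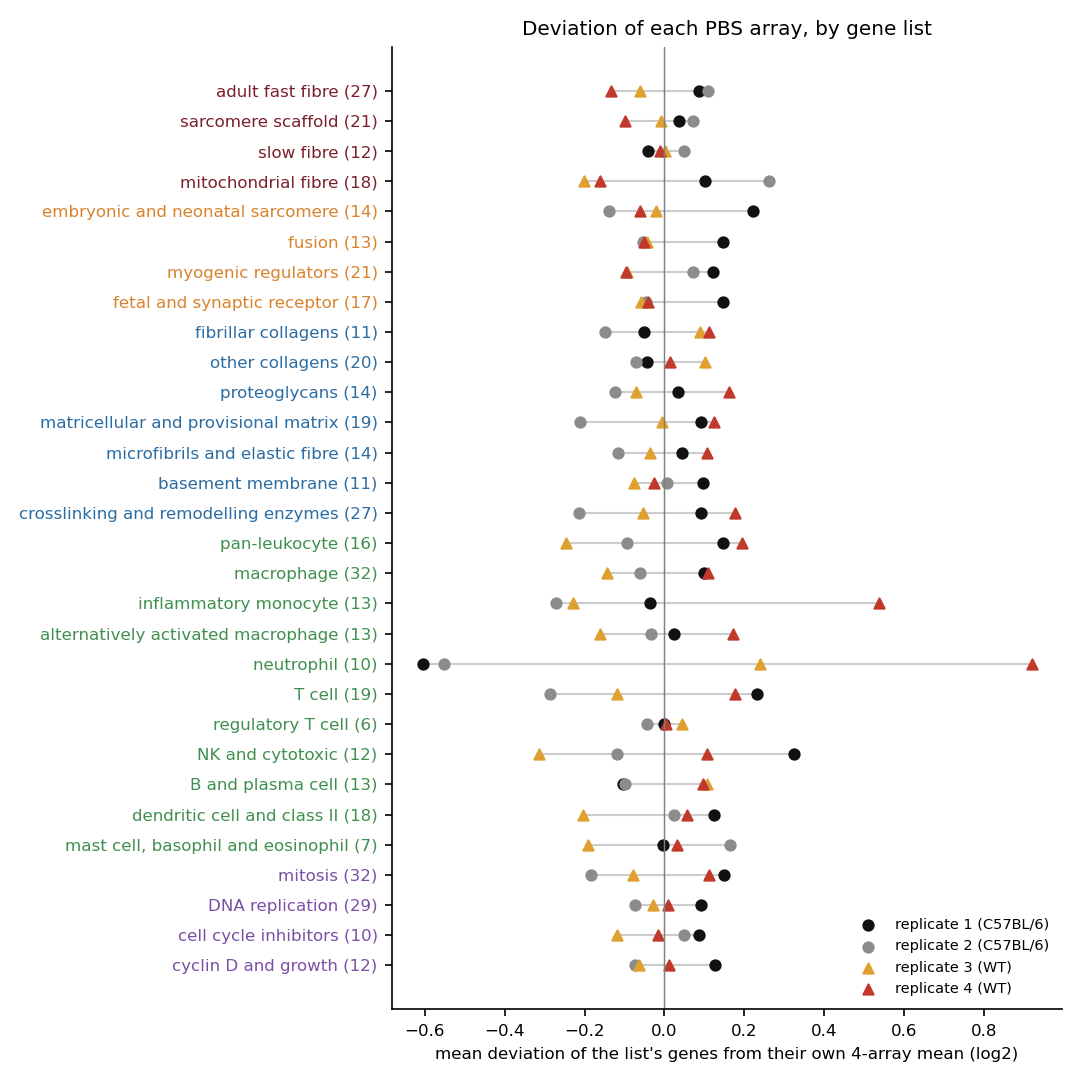
Mean deviation (log2) of the above-background genes of each list from their own 4-array mean, for each PBS array; circles are arrays labelled C57BL/6, triangles arrays labelled WT, and brackets give the number of genes. Neutrophil genes spread most, from -0.61 on replicate 1 to 0.92 on replicate 4 in the 10 genes above background, 6 of which passed that filter only through the WT-labelled arrays, while most lists stay within about 0.2 of 0.

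Matrix genes were bright and nearly all above background, 116 of 119, with a class median at percentile 85.1 ± 1.8. The matricellular and provisional matrix list was the highest of them, at 93.6 ± 1.8. Sparc, a collagen-binding matricellular protein, gave 13.36, 13.24, 13.36 and 13.46. Postn, the periostin of wound fibroblasts, gave 13.30, 13.08, 13.36 and 13.29. Fn1, the fibronectin of the provisional matrix, gave 13.26, 12.93, 13.20 and 13.30. Tnc, the tenascin C that regenerating muscle makes for a short time, gave 11.97, 11.21, 11.93 and 11.61. Replicate 2 was the lowest array for all 4, and for 13 of the 19 genes of the list, beside 18.7% of all genes above background.

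Collagens ranged widely in signal. Among the fibrillar ones, Col1a1 gave 12.38, 12.16, 12.43 and 12.55, Col1a2 gave 11.88, 11.58, 11.84 and 11.95 and Col3a1 gave 11.55, 11.28, 11.30 and 11.61; these are the main fibre-forming collagens of muscle connective tissue. Col6a1, Col6a2 and Col6a3, the chains of the microfibrillar collagen VI, lay between 10.29 and 11.16. No fibrillar collagen was in the most variable 10% (1 without replicate 1). The leucine-rich proteoglycans decorin (Dcn; 13.18, 13.24, 13.11 and 13.23) and biglycan (Bgn; 13.18, 13.05, 13.30 and 13.33), which coat collagen fibrils, were not in it either. Basement membrane genes had a median at percentile 89.8 ± 0.99, with Nid1, which links laminin to collagen IV, at 11.54 to 11.65 and Lama2, the laminin chain of the fibre surface, at 10.16 to 10.57.

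Members of wide spread in the matrix class included enzymes, inhibitors and injury-induced proteins, and also a proteoglycan and a collagen. Timp1, an inhibitor of metalloproteinases, gave 10.54, 9.43, 9.99 and 10.71. Lox, the lysyl oxidase that crosslinks collagen, gave 11.27, 10.48, 11.18 and 11.61. Mmp13, a collagenase, gave 10.24, 9.43, 10.09 and 10.54, and Thbs1, the thrombospondin that releases active transforming growth factor beta, gave 11.06, 10.37, 11.04 and 11.29. All 4 were lowest on replicate 2 and highest on replicate 4. In the list of crosslinking and remodelling enzymes 18 of 27 genes were lowest on replicate 2 and 15 were highest on replicate 4, shares that over all genes above background were 18.7% and 20.7%. Prg4, the lubricin of joints and tendon sheaths, stood apart on replicate 4, with 9.87, 9.50, 9.89 and 11.09. Mmp12, the macrophage elastase, ran against the others, with 9.96, 9.70, 9.37 and 8.98. The proteoglycan gene Vcan gave 10.37, 9.79, 10.20 and 10.82, and the collagen gene Col12a1 gave 10.58, 9.91, 10.82 and 10.44. Both were in the most variable 10%. Over the class 21 genes were in the most variable 10%, and without replicate 2 there were 12.

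Leukocyte genes spanned a wide range of signal, with macrophage and pan-leukocyte lists bright and lymphocyte and neutrophil lists dim. Of 203 found, 157 were above background, and the class median was at percentile 46.2 ± 4.8. The macrophage list sat at 90.5 ± 1.1, with 32 of 33 genes above background, and the pan-leukocyte list at 90.4 ± 2.0 with all 16. Lyz2, the lysozyme of macrophages and neutrophils, gave 12.97, 12.74, 12.93 and 12.98. Apoe, a lipid carrier that macrophages make, gave 13.02, 12.91, 12.66 and 12.72. C1qb, a chain of complement C1q, gave 12.18, 12.09, 11.91 and 12.14. Cd68, a lysosomal protein of phagocytes, gave 11.21, 11.02, 10.91 and 11.04, and Adgre1, which encodes the macrophage antigen F4/80, gave 10.52, 10.24, 10.20 and 10.69. The median SD of the list was 0.17, beside 0.14 for all genes. Replicate 3 was the lowest array in 22 of the 32, beside 41.7% of all genes above background.

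The dendritic cell and class II list sat at percentile 63.4 ± 5.1, with 18 of 19 genes above background and levels from 6.44 to 12.05. Among its brightest members, the class II genes H2-Aa (12.10, 11.89, 11.54 and 12.14), H2-Ab1 (12.11, 11.90, 11.52 and 12.28) and Cd74, the invariant chain (12.27, 12.16, 11.59 and 12.18), were all lowest on replicate 3. Genes of alternatively activated macrophages differed among themselves. Mrc1, the mannose receptor, gave 10.04, 9.73, 9.70 and 10.37, while Arg1, the arginase of macrophages exposed to type 2 cytokines or to tissue damage, was near background on 3 arrays and reached 8.29 on replicate 4, against 6.90, 6.55 and 6.99. Retnla, a secreted product of alternative activation, was highest on replicate 2 (7.78, 8.56, 7.55 and 7.65), and Chil3 was below background.

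Lymphocyte genes were dim. The T cell list had its median at percentile 42.3 ± 4.6, with 19 of 21 genes above background, and the NK and cytotoxic list at 33.3 ± 5.0, with 12 of 17. Cd3g, a chain of the T cell receptor complex, gave 8.86, 6.81, 7.42 and 8.72. Cd3e, another chain of the complex, gave 8.39, 7.72, 7.98 and 8.36, and Cd8b1, the coreceptor of cytotoxic T cells, gave 8.48, 7.18, 7.29 and 8.16. Nkg7, a granule protein of NK and cytotoxic T cells, gave 10.02, 8.55, 8.17 and 9.45, Gzmk, a granzyme, gave 8.40, 7.04, 7.74 and 8.21, and Ccl5, a chemokine of the same cells, gave 10.71, 9.67, 9.32 and 9.91. In each of these 6 genes replicates 1 and 4 were above replicates 2 and 3, so the order of these 6 did not follow the background labels. The lists were less uniform. Of 19 T cell genes, 10 were highest on replicate 1 and 6 on replicate 4, beside 35.4% and 20.7% of all genes above background. Of 12 NK and cytotoxic genes, 7 were highest on replicate 1, 3 on replicate 2 and 1 on replicate 4. With the WT label 9 of these 12 and 5 of the 19 were lower, beside 57.8% of all genes tested. Foxp3, the defining factor of regulatory T cells, gave 7.16, 7.22, 7.52 and 7.47, and 6 of the 11 regulatory T cell genes were above background. Of 19 B and plasma cell genes found, 13 were above background, beside 70.6% of all genes, and levels ran from 5.63 to 11.04. Cd79a and Ms4a1, which encodes CD20, were among those below it. Among 18 genes of mast cells, basophils and eosinophils 7 were above background. Of these the mast cell protease genes Cpa3 (8.73, 8.94, 7.55 and 8.39) and Mcpt4 (8.72, 8.87, 7.72 and 8.16) were lowest on replicate 3, while the eosinophil granule genes Epx and Prg2 were below background.

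Neutrophil and inflammatory genes had the widest spread of all lists. The neutrophil list sat at percentile 27.9 ± 11.5 with 10 of 20 genes above background, and at 22.4 without replicate 4. Of the 10, 6 had a mean over the C57BL/6-labelled arrays at or under the cut-off and so passed only through the WT-labelled ones. Over all 20 genes found, the mean deviation was -0.51, -0.44, 0.18 and 0.77 on replicates 1 to 4. S100a9, a calcium-binding protein that fills the neutrophil cytosol, gave 6.72, 6.69, 8.02 and 9.27. Lcn2, the iron-scavenging lipocalin of neutrophil granules and of stressed tissue, gave 7.79, 7.86, 8.76 and 10.17. Ngp, the neutrophilic granule protein, gave 5.65, 6.00, 8.99 and 8.03, so that it was highest on replicate 3. Mmp9, a gelatinase that neutrophils store, gave 7.93, 7.81, 8.73 and 9.13. Csf3r, the receptor for granulocyte colony-stimulating factor, gave 7.98, 7.86, 7.94 and 9.38. Cxcr2, the main chemokine receptor of neutrophils, was below background on 3 arrays (5.08, 5.20 and 5.65) and reached 8.71 on replicate 4. In 16 of the 20 genes both WT-labelled arrays lay above both C57BL/6-labelled ones, as in 31.9% of all genes. Ly6g, which defines mouse neutrophils, was below background (5.55, 5.72, 6.38 and 6.72).

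Replicate 4 also stood apart in the inflammatory monocyte list, where the mean deviations were -0.04, -0.27, -0.23 and 0.54 and 12 of 13 genes were highest there, beside 20.7% of all genes above background. The list sat at percentile 51.0 ± 14.6, and at 43.9 without replicate 4. Il1b, the cytokine interleukin 1 beta, gave 7.06, 7.11, 7.09 and 9.86. Cxcl2, a chemokine that draws neutrophils, gave 5.98, 6.02, 6.73 and 8.77, and Ccl3, a chemokine of macrophages, gave 9.35, 9.24, 8.64 and 10.02. Ccr2, the receptor that brings monocytes out of the marrow, gave 8.76, 8.64, 8.36 and 9.25. Il6 was below background on every array (4.59, 4.77, 4.64 and 6.33). Among all 30 genes of largest SD, 18 were set apart by a high value on replicate 4. High values on replicates 1 and 3 set apart 3 each. On replicate 2 there were 2 high and 3 low, and on replicate 3 there was 1 low. Of the 100 genes of largest SD, 29, 23, 6 and 42 were highest on replicates 1 to 4. Over all genes above background these shares were 35.4%, 21.7%, 22.1% and 20.7%. Members of no list among the 18 included Saa3, an acute-phase serum amyloid (6.38, 6.51, 6.66 and 9.49), Tnfaip6, a hyaluronan-binding protein induced by inflammation (8.66, 8.40, 8.58 and 10.11), Acod1, the itaconate-making enzyme of activated macrophages (7.10, 7.16, 7.60 and 8.90), and Serpina3n, an acute-phase protease inhibitor (10.47, 9.93, 10.27 and 11.59). The 18 also held Prokr2 (6.04, 6.12, 6.73 and 8.73), Crabp2 (7.39, 7.26, 7.89 and 8.88) and Nxpe5 (7.99, 7.41, 7.88 and 9.07). Between replicates 3 and 4, which share a label, 41 genes differed more than 2-fold and 40 of them were higher on replicate 4. Leukocyte genes in the most variable 10% numbered 63 of 157 and were 39 without replicate 4.

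**Figure D3:**
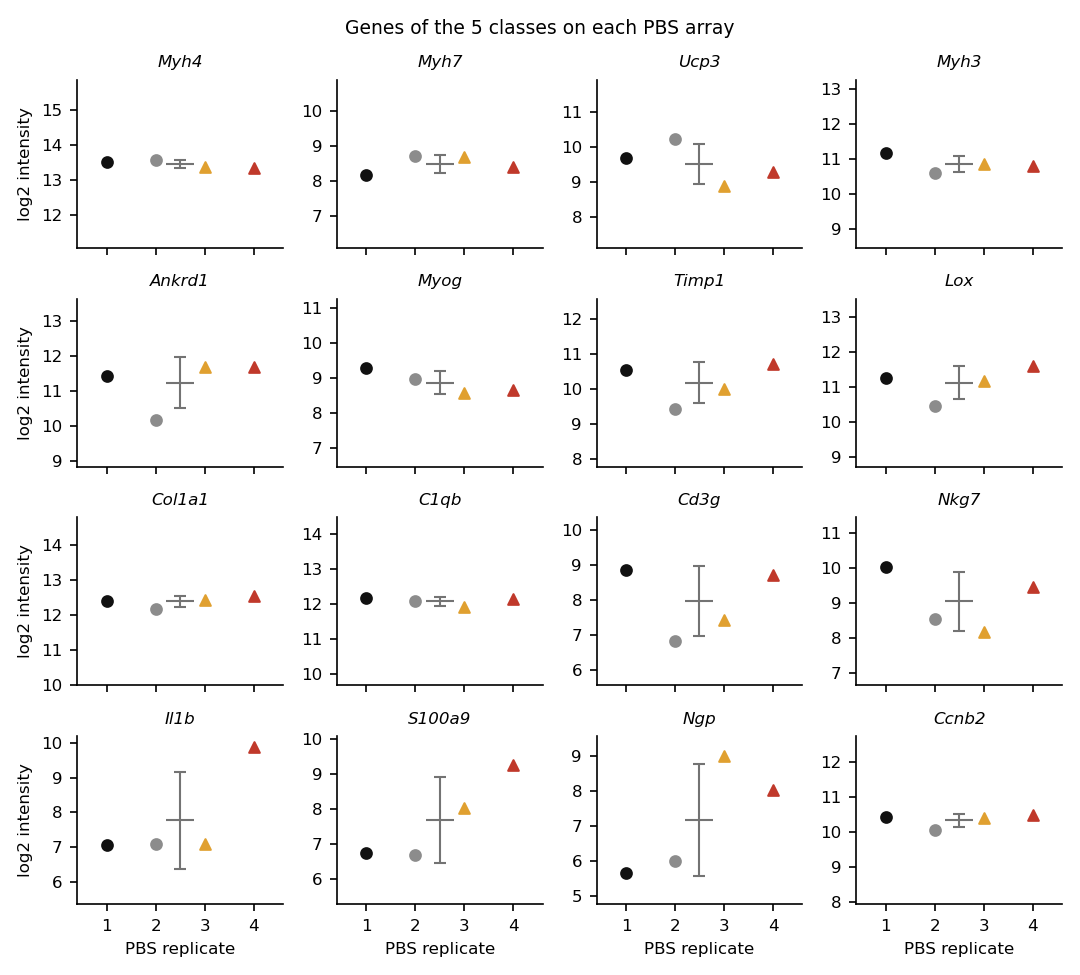
Log2 intensity (y axis, each panel spanning the same range) of 16 genes on PBS replicates 1 to 4 (x axis; circles C57BL/6 label, triangles WT label), with the mean and SD of the 4 arrays in grey. Il1b is at 9.86 on replicate 4 and near 7.1 on the others, Cd3g is high on replicates 1 and 4, Timp1 is lowest on replicate 2, and Myh4 spans 0.22 between its highest and lowest array, against 2.80 for Il1b.

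The promoter of Lcn2, at chr2:32387720-32387989 on the minus strand of GRCm38.p6, is shown because the gene was among those set apart on replicate 4 and its window holds the motif of the C/EBP factors, which drive granulocyte genes. Capitals mark a C/EBP motif (TTGCNNAA) 216 bases before the start.
Lcn2: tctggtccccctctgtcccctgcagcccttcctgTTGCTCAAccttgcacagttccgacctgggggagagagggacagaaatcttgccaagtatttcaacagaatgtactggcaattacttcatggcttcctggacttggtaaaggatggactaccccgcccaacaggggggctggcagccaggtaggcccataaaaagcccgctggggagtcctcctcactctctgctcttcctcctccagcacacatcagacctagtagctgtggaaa
Of the 18 genes high on replicate 4, 16 had a promoter in the RefSeq table. The C/EBP motif was in 5 of them (31.3%), against 8.16% of genes above background and 10.8% of all promoters. TATAAA was also in 5 (31.3%), against 7.91% and 14.2%, and the NF-kB motif was in 3 (18.8%), against 10.2% and 8.18%. With 16 promoters these shares are coarse, and the genes were chosen from these same arrays. Of the 18, Saa3, Arg1, Prokr2 and Il1r2 averaged 6.52, 6.81, 6.30 and 6.55 over replicates 1 to 3. These means were under the background cut-off, so these genes passed it only through replicate 4. TTTGAA, a motif of mitotic genes, was in 4 of the 16, against 11.9% and 18.1%. The other motifs searched were no more frequent than among genes above background. The C/EBP motif was also in 4 of the 21 adult fast fibre promoters, but in 0 of the 29 mitosis promoters. Whether C/EBP factors act on these genes was not tested.

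Proliferation genes were at middling signal and were the steadiest of the 5 classes by their share of variable genes. By median SD they were not, with 0.15 beside 0.13 for the fibre class and 0.14 for all genes above background. Of 89 found, 83 were above background, the class median was at percentile 55.9 ± 2.0, and 2 genes, Bub1 and Odc1, were in the most variable 10%. No gene of the class spanned more than 1 on the log2 scale. The mitosis list sat at 50.9 ± 3.0 with 32 of 35 genes above background, and the DNA replication list at 52.0 ± 1.0 with 29 of 32. Ccnb2, a cyclin of mitotic entry, gave 10.41, 10.05, 10.38 and 10.47. Mki67, the proliferation antigen Ki-67, gave 9.48, 9.09, 9.51 and 9.55. Cdk1, the kinase that mitotic cyclins switch on, gave 9.64, 9.17, 9.25 and 9.45, and Top2a, the topoisomerase that untangles chromosomes, gave 8.86, 8.51, 8.58 and 8.81. Pcna, the sliding clamp of DNA polymerase, gave 10.89, 10.36, 10.40 and 10.60, and Mcm2, a subunit of the replicative helicase, gave 8.84, 8.78, 8.79 and 8.76.

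Small differences in the mitosis genes ran together. Replicate 2 held the lowest value of 23 of the 32 above background, against 18.7% of all genes. Replicate 1 held the highest of 17 and replicate 4 the highest of 13, against 35.4% and 20.7% of all genes above background. The mean deviations were 0.15, -0.18, -0.08 and 0.11. Leaving out replicate 3 raised the number of proliferation genes in the most variable 10% from 2 to 11, 9 of them mitosis genes, and leaving out replicate 4 raised it to 5. The inhibitors Cdkn1b (9.85, 9.94, 9.53 and 9.63) and Cdkn1c (10.39, 10.17, 10.06 and 10.03), which hold cells out of the cycle, and Cdkn2a (7.13, 7.16, 7.33 and 7.22), which encodes p16 and p19 and marks senescent cells, did not share that order.

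The promoter of Ccnb2, at chr9:70421535-70421804 on the minus strand of GRCm38.p6, is shown because it holds both motifs typical of mitotic genes. Capitals mark CCAAT boxes (CCAAT, bound by NF-Y) 87, 54 and 21 bases before the start, and the letters of the cell cycle homology region (CHR, TTTGAA, bound by the DREAM and B-MYB complexes) 167 bases before it and again 4 bases after it.
Ccnb2: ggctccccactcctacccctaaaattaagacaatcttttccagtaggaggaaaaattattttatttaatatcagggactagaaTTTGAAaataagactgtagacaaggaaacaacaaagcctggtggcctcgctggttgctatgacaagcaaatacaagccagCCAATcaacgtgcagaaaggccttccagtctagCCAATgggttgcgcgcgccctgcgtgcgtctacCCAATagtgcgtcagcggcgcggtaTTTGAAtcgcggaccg
Of the 29 mitosis genes with a promoter in the table, 23 (79.3%) held TTTGAA on either strand, against 11.9% of the genes above background and 18.1% of all promoters. CCAAT was in 20 (69.0%), against 37.5% and 37.9%. TATAAA was in 1 of the 29 (3.45%), against 7.91% of genes above background.

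**Figure D4:**
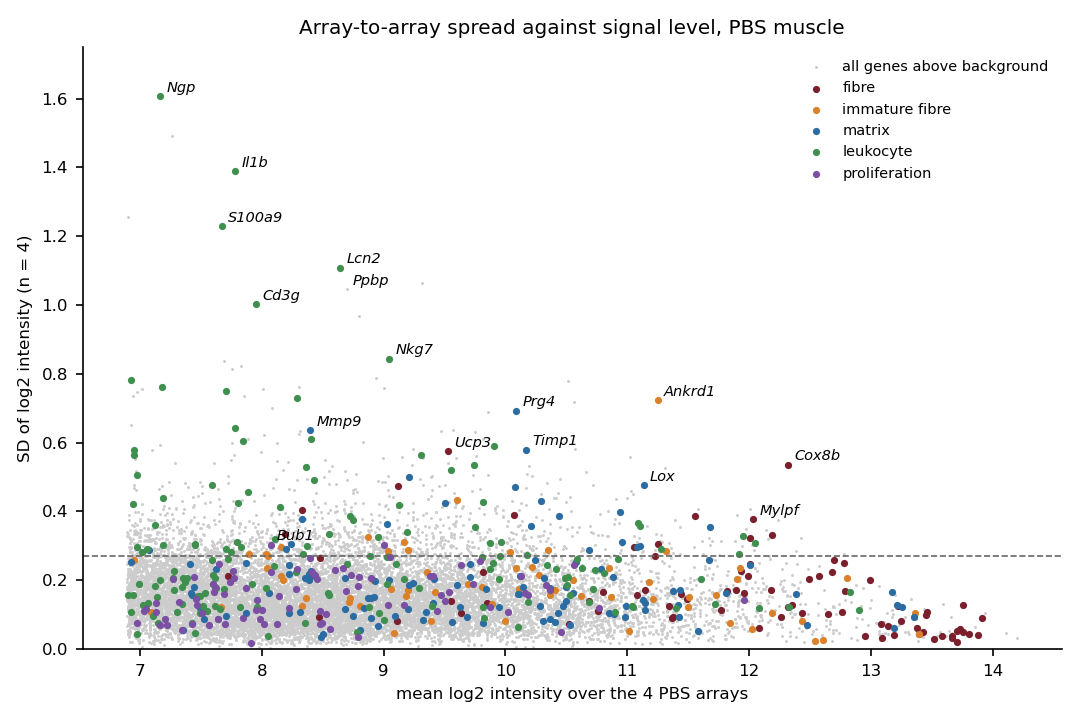
SD of log2 intensity over the 4 PBS arrays (y axis) against the mean (x axis) for the 13936 genes above background, with members of the 5 classes in colour and some named; a gene in 2 classes has the colour of the first. The dashed line is the SD of 0.27 that bounds the most variable 10%, and the brightest fibre genes lie low while Ngp, Il1b, S100a9 and Lcn2 lie at an SD above 1.

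Other cells of the muscle were read from their own markers. Endothelial genes sat at percentile 75.7 ± 1.4 with all 19 above background, and Cdh5, the cadherin of endothelial junctions, gave 11.36, 11.25, 11.12 and 11.15. Fibro-adipogenic progenitor genes sat at 77.8 ± 1.3 with all 19, and their widest spread was that of Sfrp1, a secreted Wnt inhibitor, with 9.29, 8.84, 9.41 and 10.35. Pericyte and smooth muscle genes sat at 81.3 ± 1.5. In the adipocyte list Car3, a carbonic anhydrase that muscle fibres also make, was the brightest at 13.52 to 13.60, and Retn, the hormone resistin of fat cells, was the most variable at 8.02, 8.51, 8.83 and 8.30. Skin and epithelium genes sat at 30.2 ± 2.9 with 8 of 15 above background, and Krt18, a keratin of simple epithelia, gave 10.12, 9.27, 8.93 and 8.96. Of 7 erythroid genes found, 5 were above background, with Slc4a1, the anion exchanger of red cells, at 7.15, 7.55, 8.48 and 7.89. Immediate early genes, which respond to handling within minutes, were highest on replicate 2 in 12 of 18 and lowest on replicate 3 in 13, beside 21.7% and 41.7% of all genes above background. Fos, a transcription factor of that group, gave 8.13, 8.73, 7.81 and 7.95.

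The 1 comparison the PBS arrays allow among themselves is that of the background labels, 2 arrays against 2. It was fitted with limma on all 8 arrays in 4 cells of label and treatment, so that the spread between arrays also came from the rIL-33 pairs. An exact permutation test of 2 against 2 cannot go below a two-sided p of 0.33 and was not run. Of 13936 genes tested, 86 (0.617%) passed a Benjamini-Hochberg adjusted p of 0.05 in limma. With the WT label 10 were higher (0.0718%) and 76 lower (0.545%), and 3597 had an unadjusted p under 0.05.

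Neutrophil genes led the higher side. Ngp was higher by 2.69 (SE 0.27, limma adjusted p = 0.0271), S100a9 by 1.94 (SE 0.32, adjusted p = 0.0471) and Mmp9 by 1.06 (SE 0.15, adjusted p = 0.0351). Ppbp, a platelet chemokine, was higher by 1.71 (SE 0.22), with 8.25, 7.43, 9.52 and 9.59. Ankrd2, a stretch-responsive protein related to Ankrd1, was higher by 0.89 (SE 0.15), with 10.18, 10.25, 11.10 and 11.12. Tarm1, Smarca5, Krtap5-3, Lgi3 and Olfr982 were higher by 0.59 to 0.86. Matrix genes had 1 call among 116, which was Mmp9 itself, beside 0.0718% called higher over all genes. Ngp and S100a9 were under the background cut-off on both C57BL/6-labelled arrays, so their differences rest on signal near background there. They entered the test only through the WT-labelled arrays, where they were high, as did 6 of the 10 neutrophil genes tested in all. The number of neutrophil calls is therefore no independent support for a difference in that list.

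On the lower side stood small RNAs and mitochondrial subunits. Rny1, a noncoding Y RNA, fell by 1.73 (SE 0.23, limma adjusted p = 0.0351), with 10.29, 10.08, 8.02 and 8.88. The small nucleolar RNAs Snord82 and Snord33 fell by 0.95 and 0.94, and the Cajal body RNA Scarna17 fell by 1.06. Mir1a-1 and Mir133a-2, the genes of 2 microRNAs of striated muscle, fell by 1.25 and 0.97, with Mir1a-1 at 7.83, 7.37, 6.36 and 6.34. Ndufa1, a small subunit of respiratory complex I, fell by 1.09, Tmem126a, a protein of complex I assembly, by 1.00, and Atp5e, a small subunit of the ATP synthase, by 0.94. H60b, a stress ligand of the NKG2D receptor, fell by 0.94. Among the listed genes Cox8b fell by 0.93 (SE 0.13, adjusted p = 0.0351), Mylpf, the fast regulatory light chain, by 0.65 (SE 0.11, adjusted p = 0.0471) and Mcpt4 by 0.86 (SE 0.15, adjusted p = 0.0496). These made 2 lower calls among 78 fibre genes and 1 among 157 leukocyte genes, beside 0.545% over all genes tested, while 0 of 65 immature fibre genes (21 at an unadjusted limma p under 0.05) and 0 of 83 proliferation genes (6 at that p) passed. Mir1a-1 and H60b were under the background cut-off on both WT-labelled arrays and entered the test only through the C57BL/6-labelled ones.

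Respiratory chain and ATP synthase subunits were then counted by symbol, a family chosen after its values were seen. Of 76 tested, 66 were lower with the WT label and 8 passed, and their median difference was -0.34, while over all genes tested 57.8% were lower, 0.617% passed and the median was -0.04. Cytosolic ribosomal proteins were lower in 45 of 59, with a median of -0.21 and 5 calls, and small nucleolar RNAs in 30 of 40, with a median of -0.30 and 3 calls. MicroRNA genes mostly ran the other way, higher in 93 of 122, beside 42.3% of all genes, with a median of 0.22. Signal level moved with the difference. With the genes tested cut into 4 equal bands by level, the median in the dimmest band was 0.14 and 29.0% were lower. In the third band it was -0.12 and 73.7% were lower, and in the brightest band it was -0.09 and 68.4% were lower. None of the family counts was set against genes of like level. The part of this compression in the calls and in the family counts was not tested.

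**Figure D5:**
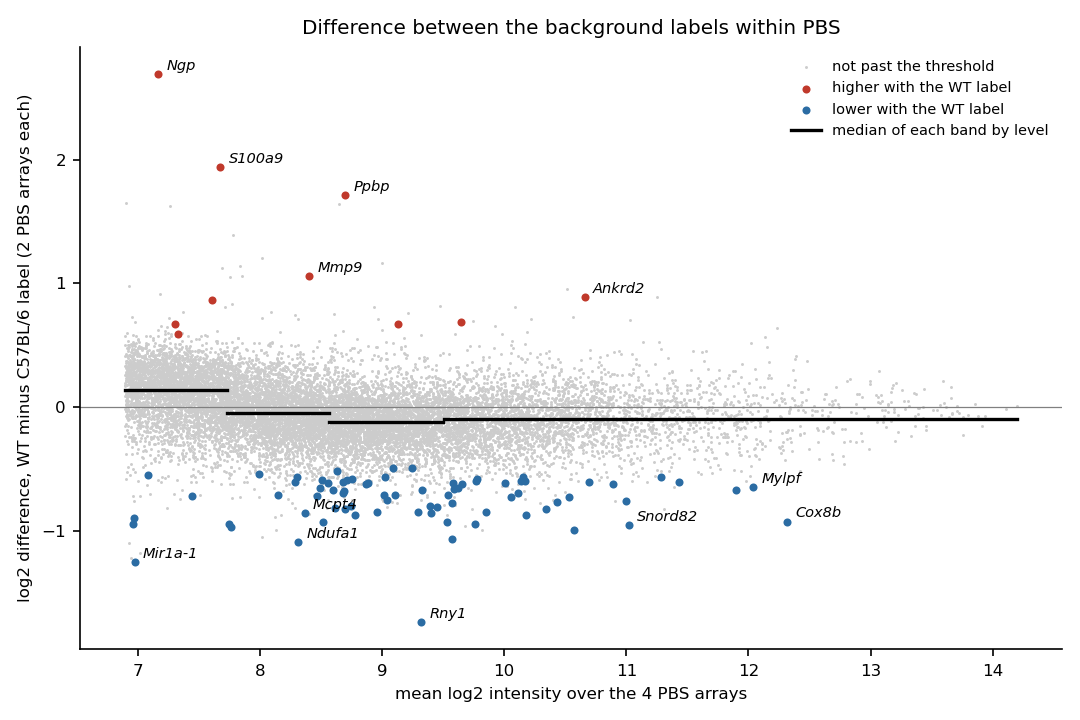
Log2 difference of the WT-labelled minus the C57BL/6-labelled PBS arrays (y axis, 2 arrays each) against the mean log2 intensity of the 4 arrays (x axis) for 13936 genes; red and blue dots are the 10 higher and 76 lower genes past a limma adjusted p of 0.05, and black bars are the medians of 4 equal bands of genes by level. The bars run from 0.14 in the dimmest band to -0.12 in the third.

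The count of calls did not hold under other treatments of the arrays. It was 8 after quantile normalization, 4 higher and 4 lower, namely Ngp, Ppbp, Mmp9, Smarca5, Mir1a-1, Snord33, H60b and Pagr1a (the last named here for its call), and 2 after cyclic loess, Ngp and Snord33, all of them among the 86. In limma without PBS replicate 1 it was 1, without replicate 2 it was 0 (3101 genes at an unadjusted p under 0.05), without replicate 3 it was 26 (22 higher and 4 lower) and without replicate 4 it was 2. The same label difference within the rIL-33 arrays gave 0 calls in limma, with 1352 genes at an unadjusted p under 0.05. The test of whether the label difference itself differed between the treatments also gave 0, with 443 such genes and a smallest adjusted p of 0.762. Of the 76 genes called lower, 75 were also lower with the WT label within rIL-33, and of the 10 called higher 8 were also higher, where 75.2% of all genes had the same sign. These arrays share no samples with the PBS pairs, but they took part in choosing the calls through the spread of the fit. Ngp, the most different, differed by 0.34 there and Ppbp by -0.08.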

How the data were processed

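Whole tibialis anterior RNA was measured on 8 arrays, of which the 4 labelled PBS are described. The deposited values are intensity per probe set on a linear scale, made by the authors with Affymetrix Power Tools and RMA (background correction, equalised distributions, probe summary) per the submitters' processing notes; versions were not given in the sources used here. Log2 was taken here. Of 24922 probe sets, 21425 had exactly 1 gene symbol in the platform annotation, 1399 had several and 2098 were not listed; the last 2 kinds were not used here. For each of 19752 genes the probe set of highest mean over the 4 PBS arrays was kept. RMA equalises arrays, so shifts shared by all genes cannot be seen, and arrays give no read depth; their number limits the precision.

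The 41 gene lists (756 genes, 698 found) and the comparisons were chosen with earlier results of these data known. Any member of the 5 main classes could be named. From the other lists the brightest and most variable members were eligible, and of all genes the 30 brightest and the 30 most variable; for the label difference, the 10 largest per direction and listed genes past the threshold. The label difference was fitted in R 4.3.3 with limma 3.58.1 (lmFit, eBayes), with Benjamini-Hochberg adjustment. On data simulated for this comparison (13936 genes), 24 of 50 log2 changes of 0.5 were found, 44 of 50 of 1, 48 of 50 of 2 and 50 of 50 of 3, with 9 false calls. The simulated noise was normal and independent, with the same spread on every array for a given gene. It held no compression by signal level and no shift shared by genes, so these counts do not cover such differences between the real arrays. Promoters are RefSeq's, matched by symbol. Alternatives were other background cut-offs, averaged probe sets, quantile and cyclic loess normalization, limma with trend and robust, the PBS arrays alone, and each array left out.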

Additional observations from a re-analysis of the deposited data

Results flagged for a closer look

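Among the 4 PBS arrays, values were singled out where the gap between 1 array and its nearest neighbour exceeded Dixon's 95% critical value for 4 values, which chance alone does in about 1 group in 20. Of the 13936 genes above background, 526 (3.77%) exceeded it.

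Of 145 genes of this report that were checked, 9 passed. On replicate 4, 6 genes of inflammation stood high: Il1b at 9.86 (mean of the other arrays 7.09), Saa3 at 9.49 (6.52), Tnfaip6 at 10.11 (8.55), Csf3r at 9.38 (7.93), Cxcr2 at 8.71 (5.31) and Il6 at 6.33 (4.67), the last under the background cut-off. On replicate 3, the class II invariant chain Cd74 stood low at 11.59 (12.20). On replicate 1, the mature fibre regulator Myf6 stood low at 12.49 (12.91). On replicate 2, the proliferation antigen gene Mki67 stood low at 9.09 (9.51). After quantile normalization 8 of the 9 still passed, Mki67 not (9.06 against 9.52), and after cyclic loess 7, Mki67 and Tnfaip6 not (10.12 against 8.55 for Tnfaip6); both were tried after seeing the data. Il1b, Saa3, Tnfaip6 and Csf3r were among the 30 genes of largest SD on these same arrays. A large SD was a ground for naming a gene, so their passing is no independent support. Cxcr2 and Il6 were not among the genes above background, whose share is given above. What sets these arrays apart was not tested.

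Of 48 lists and classes, 4 passed on the mean deviation of their genes. Replicate 1 was high for the immature fibre class by 0.15, and within it for the fusion list by 0.15 and the fetal and synaptic receptor list by 0.15, so these are not independent. Replicate 3 was high for the Schwann cell and nerve list by 0.11. None of the 4 passed after quantile or cyclic loess normalization, where these values were 0.088 and 0.092 for the immature fibre class, 0.085 and 0.086 for fusion, 0.066 and 0.070 for fetal and synaptic receptor and 0.089 and 0.071 for Schwann cell and nerve genes.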

How the results depend on the processing

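The levels of the 5 classes moved by less than their SD over arrays under the mean of probe sets, the probe set chosen on 8 arrays, quantile normalization and each array left out. When only genes above background were ranked, the percentiles were 98.6 for fibre, 83.7 for immature fibre, 79.6 for matrix, 40.0 for leukocyte and 42.9 for proliferation genes, because fewer genes were ranked. The number of genes above background stayed within 1.5 times of 13936 under every alternative. Counts in the most variable 10% ranged, with 1 array left out, from 8 to 18 for fibre, 6 to 12 for immature fibre, 12 to 26 for matrix, 39 to 66 for leukocyte and 3 to 11 for proliferation genes; under other normalizations they stayed within 1.5 times.

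Label difference calls were 25 with the PBS arrays alone (20 of them among the 86), 29 with no filter on dim genes, 8 after quantile and 2 after cyclic loess normalization and 1313 at an adjusted p of 0.1 (360 higher and 953 lower). With 1 array left out they ranged from 0 to 174, the lone array then being assumed to vary like the others. Leaving out either array of an rIL-33 pair gives the same count by construction, since neither then adds to the spread. All 23 genes named for that difference kept its direction wherever they were fitted.

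The array with the highest mean deviation was the same after quantile normalization in 34 of 41 lists and after cyclic loess in 34, comparisons chosen after seeing the data. No paired analysis was possible because the label groups compared, replicates 1 and 2 against 3 and 4, share no replicate number. With 4 arrays, no uninjured muscle and no cell counts, small differences between arrays were not resolved.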

Other observations

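Genes of tissues that adjoin the muscle were also read on the PBS arrays. Tendon genes sat at percentile 75.8 ± 2.4 (mean ± SD over arrays, n = 4) with all 11 above background. The brightest was Thbs4, a thrombospondin of tendon and muscle attachment sites, at 11.68, 11.35, 11.67 and 11.98, and the most variable was Egr1, a transcription factor of tendon and of the immediate early response, at 9.55, 9.86, 9.11 and 9.17. Schwann cell and nerve genes sat at 35.8 ± 1.5 with 11 of 16 above background, and the brightest was Pmp22, a myelin protein that other cells also make, at 11.49, 11.46, 11.70 and 11.72. Bone and cartilage genes sat at 33.6 ± 4.0 with 6 of 11 above background.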
